A study of Mus musculus with 12 samples.

Results

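Transcripts of 10 genes that mark the fibroblasts of the meninges and of the perivascular space were followed through 12 RNA-seq libraries of brain from mice without and with Tert, the gene for the catalytic subunit of telomerase. The genes, given as a fixed list, are Slc6a13, Slc22a6, Slc13a4, Dcn, Lum, Ogn, Igf2, Ptgds, Foxc1 and Bgn. All 10 were found, by symbol in the GENCODE annotation of GRCm38, among 55487 gene rows of each deposited table. The libraries were of total RNA from C57BL/6 mice and formed 4 groups of 3, namely mTert KO (G1) cerebral cortex, mTert WT cerebral cortex, mTert KO (G1) hippocampus and mTert WT hippocampus. The deletion is not described further in the labels, and the sources used here do not give the age or sex of the mice, whether a library holds 1 animal or a pool, or whether a cortex and a hippocampus came from the same mouse. The labels do not tie the 3 libraries of each group to different mice, and the p-values below therefore measure library-to-library spread that may be technical.

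Fibroblasts of the brain lie in the pia, arachnoid and dura and in sheaths around larger vessels, outside the neural tissue itself. They make the collagens and small proteoglycans of these layers, and those of the arachnoid and pia carry membrane transporters that move amino acids, organic anions and sulfate between blood, cerebrospinal fluid and brain. They also release prostaglandin D synthase and insulin-like growth factor into the cerebrospinal fluid, and the forkhead factor Foxc1 is needed for the meninges to form. None of the genes is exclusive to these cells: Igf2, Slc13a4 and Ptgds are known from the choroid plexus too, and Ptgds from oligodendrocytes.

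Values are the authors' normalized counts, gene read counts scaled per library. Libraries held between 68424934 and 77972013 reads in cortex and between 72401909 and 86639113 in hippocampus. Counting error came to at most 9.49% of a library's value for the 10 genes other than Lum, and to 6.1% to 14.1% for Lum. Tert, the targeted gene, had 0, 0 and 0 normalized counts in KO cortex, against 206, 105 and 241 in WT cortex. In hippocampus it had 0, 6.31 and 0 in KO libraries, against 147, 184 and 128 in WT libraries. Sums over 10 hippocampal neuron genes were 100053 to 127127 normalized counts in the hippocampus libraries and 15744 to 18644 in the cortex libraries. Sums over 10 cortical neuron genes were 163952 to 199357 in the cortex libraries and 150957 to 184321 in the hippocampus libraries. The cortical neuron sums overlapped and do not tell the tissues apart. Libraries stood apart in 3 ways. WT cortex library 2 differed from the others of its group by a mean chi-square of 102 and 93.9 per gene, against 9.54 between libraries 1 and 3. WT hippocampus libraries 1 and 3 held 514762 and 273676 normalized counts of 15 choroid plexus markers, against 31050 in library 2. KO cortex libraries held 50734, 78836 and 64227 normalized counts of 12 striatal neuron markers, against 24119, 23862 and 24342 in WT cortex. The 2 tables were scaled separately, so levels of the 10 genes are compared within a tissue.

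Slc6a13 was the 1 gene of the 10 that passed the test in cortex, where it fell. Another 5 genes were lower in every KO cortex library than in every WT cortex library without passing it, and no gene of the 10 passed in hippocampus. The test was limma on log2(normalized count + 1) over all genes averaging 10 or more, and a gene counts as called when its adjusted p (Benjamini-Hochberg) is under 0.05. Fold changes are KO over WT on that scale, with SE and 3 libraries in each group. In cortex 1.94% of 21945 genes tested were called, 0.661% as lower and 1.28% as higher, and in hippocampus 29.2% of 22337 genes were called, 3141 as higher and 3372 as lower (4557 and 2949 after quantile normalization). All 10 genes passed the filter on low values in both tissues.

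Gene positions are given on GRCm38, from GENCODE, where each gene is described. Sequence upstream of 4 genes is shown because Slc6a13, Slc22a6, Slc13a4 and Ogn share the hexamer GGAATG, which is the letter sequence bound by TEAD factors. These 4 were lower in every KO cortex library, but so was Ptgds, whose window holds no match. The windows are RefSeq (GRCm38.p6) upstream sequence, 5′ to 3′ on the gene's own strand. They cover chr6:121300038-121300226 for Slc6a13 (plus strand), chr19:8617746-8617995 for Slc22a6 (plus strand), chr6:35308132-35308376 for Slc13a4 (minus strand) and chr13:49607765-49608014 for Ogn (plus strand). Capitals mark GGAATG, or CATTCC where it lies on the other strand, and in Ogn also an overlapping pair of TATAAA matches, 1 on each strand.
Slc6a13: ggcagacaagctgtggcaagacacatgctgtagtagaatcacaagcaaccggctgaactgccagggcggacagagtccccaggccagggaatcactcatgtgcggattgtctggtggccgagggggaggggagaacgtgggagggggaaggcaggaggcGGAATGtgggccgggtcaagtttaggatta
Slc22a6: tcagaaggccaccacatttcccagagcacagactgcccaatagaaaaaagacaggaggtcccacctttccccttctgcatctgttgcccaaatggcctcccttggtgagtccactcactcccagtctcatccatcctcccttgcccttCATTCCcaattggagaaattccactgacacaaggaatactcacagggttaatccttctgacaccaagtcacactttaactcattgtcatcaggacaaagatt
Slc13a4: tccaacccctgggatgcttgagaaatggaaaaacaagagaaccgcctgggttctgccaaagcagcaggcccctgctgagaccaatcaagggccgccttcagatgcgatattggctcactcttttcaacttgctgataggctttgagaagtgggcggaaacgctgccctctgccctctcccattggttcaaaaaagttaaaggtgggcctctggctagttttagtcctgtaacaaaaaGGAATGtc
Ogn: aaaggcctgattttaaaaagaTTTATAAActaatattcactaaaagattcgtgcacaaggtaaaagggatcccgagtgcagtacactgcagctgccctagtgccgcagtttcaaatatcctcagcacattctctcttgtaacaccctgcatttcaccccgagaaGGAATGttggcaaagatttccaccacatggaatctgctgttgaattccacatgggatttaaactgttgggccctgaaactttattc
Counted from the GENCODE gene starts given below, the hexamer began 30 bases upstream in Slc6a13, 145 in Slc22a6, 8 in Slc13a4 and 117 in Ogn. Counted from the RefSeq starts, before which the windows were searched, it began 91, 102, 13 and 86 bases upstream. The sequences of Slc6a13 and Slc13a4 are printed up to the GENCODE start, which lies 61 and 5 bases before the RefSeq start. Of 8 genes of the list with a window, 4 held it, and of 32851 windows of 250 bases in all 12.6% did. TGTTTA, a forkhead core, searched on both strands like the others, was in 0 of the 8 windows and in 3952 of all windows, and TATAAA was in 1 of the 8, that of Ogn, and in 12.4% of all. The motifs were chosen with these sequences in view, and a match is letters in a window, not a bound site. Dcn and Lum had no window.

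Among the transporters, Slc6a13 (ENSMUSG00000030108, chromosome 6, 121300227 to 121337733, plus strand) encodes GAT2, a carrier of GABA and taurine. It had 361, 202 and 275 normalized counts in KO cortex, against 721, 645 and 606 in WT cortex. All KO libraries lay below all WT libraries, and the largest KO value was well under the smallest WT value. Slc6a13 fell by 1.27 ± 0.20 on the log2 scale (limma adjusted p = 0.0380; lower in 3 of 3 KO libraries). The call was lost in 7 of 12 alternatives, with no change of direction, among them those without WT library 1 (adjusted p = 0.108), WT library 3 (0.112), KO library 2 (0.109) or KO library 3 (0.181). Over the 12 alternatives the log2 fold change lay between -1.47 and -1.05. In hippocampus the values were 461, 874 and 637 normalized counts in KO libraries and 735, 643 and 719.5 in WT libraries. There the groups overlapped and the WT libraries lay inside the range of the KO libraries (log2 fold change -0.13 ± 0.21, adjusted p = 0.663).

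Slc22a6 (ENSMUSG00000024650, chromosome 19, 8618039 to 8628299, plus strand) encodes OAT1, an exchanger of organic anions. In cortex it had 509, 206 and 368 normalized counts in KO libraries, against 659, 526 and 630.5 in WT libraries. The KO group lay wholly below the WT group, with KO library 1 close under the lowest WT library (log2 fold change -0.83 ± 0.30, adjusted p = 0.212). In hippocampus KO libraries had 362, 1021 and 751 normalized counts, against 420.2, 352 and 395 in WT libraries. KO libraries 2 and 3 were above every WT library and KO library 1 was among them (0.75 ± 0.33, 95% interval -0.02 to 1.52, adjusted p = 0.131). Without KO hippocampus library 1 Slc22a6 was called as higher, with 1.17 and an adjusted p of 0.00341.

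Slc13a4 (ENSMUSG00000029843, chromosome 6, 35267957 to 35308131, minus strand) encodes a sodium-coupled sulfate carrier. KO cortex libraries had 692, 338 and 464 normalized counts, against 847, 883 and 828 in WT cortex. The WT libraries were tightly grouped above the spread KO libraries (-0.83 ± 0.23, adjusted p = 0.130). Without WT cortex library 2 Slc13a4 was called as lower, with -0.81 and an adjusted p of 0.0481. In that fit 2273 of 21927 genes were called as lower, against 145 of 21945 with all libraries. KO hippocampus libraries had 879.65, 1706 and 1259.95 normalized counts, against 3023, 840.2 and 1747 in WT hippocampus. Here the WT group was the wider one, its libraries 1 and 3 high and its library 2 below every KO library (-0.41 ± 0.44, adjusted p = 0.524).

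**Figure D1:**
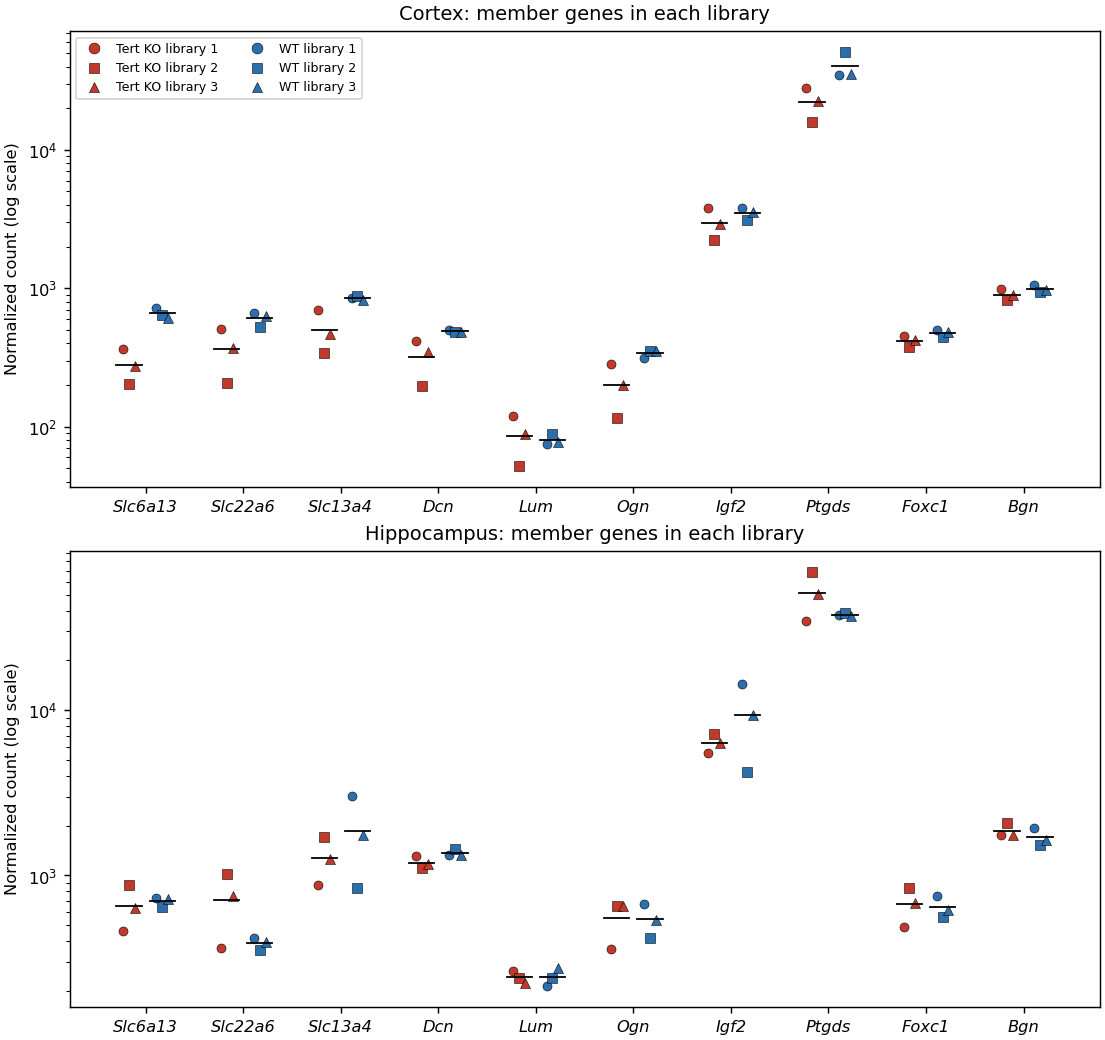
Normalized counts (log scale) of the 10 genes in each cortex library (top) and hippocampus library (bottom). Markers show libraries 1 to 3 of each group, KO in red left of WT in blue, and horizontal bars are group means of 3 libraries. In cortex 6 genes have all KO libraries below all WT libraries; in hippocampus only Dcn does, and Igf2 and Slc13a4 are spread over more than 3-fold in WT.

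Among the small leucine-rich proteoglycans, which bind collagen fibrils and growth factors, Ogn and Dcn were lower in every KO cortex library and Bgn and Lum overlapped between the groups. Ogn (osteoglycin; ENSMUSG00000021390, chromosome 13, 49608046 to 49624501, plus strand) had 282, 115 and 201 normalized counts in KO cortex, against 313, 355 and 353 in WT cortex (-0.86 ± 0.30, adjusted p = 0.197). In KO hippocampus it had 359, 657 and 653, against 675, 418 and 539.6 in WT hippocampus, with full overlap (0.01 ± 0.26, adjusted p = 0.991). Ogn overlaps Cenpp on the other strand, which had 14.1 to 28.7 normalized counts in cortex and 42.0 to 72.5 in hippocampus; the sources used here do not say whether counting used strand, which leaves a share of these reads uncertain. Dcn (decorin; ENSMUSG00000019929, chromosome 10, 97479609 to 97518143, plus strand) had 415, 198 and 343 normalized counts in KO cortex, against 502, 479 and 482 in WT cortex. WT libraries were within a narrow band and KO libraries spread below it (-0.68 ± 0.25, adjusted p = 0.219). Dcn was also the 1 gene of the list whose groups were apart in hippocampus, with 1316, 1112 and 1165 normalized counts in KO libraries and 1334, 1452 and 1328 in WT libraries. The gap was small there, -0.20 ± 0.08, and did not pass (adjusted p = 0.0873). Without KO hippocampus library 1 Dcn was called as lower, with -0.27 and a limma adjusted p of 0.0369. In hippocampus 21.5% of all genes had KO libraries wholly below WT libraries.

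Lum (lumican; ENSMUSG00000036446, chromosome 10, 97565128 to 97572703, plus strand), the neighbour of Dcn, had 119, 51.7 and 87.7 normalized counts in KO cortex, against 75.3, 88.2 and 77.5 in WT cortex. The KO libraries lay on both sides of the WT libraries (0.02 ± 0.30, adjusted p = 0.976). In KO hippocampus Lum had 263, 239 and 223, against 214, 241 and 274 in WT hippocampus, again with overlap (0.00 ± 0.13, adjusted p = 0.990). Bgn (biglycan; ENSMUSG00000031375, chromosome X, 73483602 to 73495933, plus strand) had 984, 815 and 894 normalized counts in KO cortex, against 1051, 945 and 976 in WT cortex (-0.14 ± 0.09, adjusted p = 0.461). Its values were 1760.3, 2068 and 1766 in KO hippocampus and 1943, 1521 and 1637 in WT hippocampus (0.14 ± 0.10, adjusted p = 0.358). Bgn groups overlapped in both tissues and its 95% interval, -0.37 to 0.08 in cortex, was among the narrowest of the list.

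Of the secreted products, Ptgds (prostaglandin D synthase; ENSMUSG00000015090, chromosome 2, 25466709 to 25470046, minus strand) had 28109.8, 15902 and 22484 normalized counts in KO cortex, against 35011, 50959 and 35416 in WT cortex. All KO libraries were below all WT libraries, the highest value being WT library 2 (-0.88 ± 0.23, adjusted p = 0.108). Without that library Ptgds was called as lower, with -0.71 and an adjusted p of 0.0311, in a fit that called 2273 of 21927 genes as lower. In hippocampus it had 34701, 68653 and 50208 in KO libraries and 37798, 38939.7 and 37056 in WT libraries. KO libraries 2 and 3 were above the narrow WT group and KO library 1 below it (0.38 ± 0.21, adjusted p = 0.218), and without KO library 1 the gene was called as higher (0.63, adjusted p = 0.0174). Sums of 14 oligodendrocyte markers, a further source of Ptgds, were 408875 to 441805 normalized counts in KO cortex and 356612 to 366888 in WT cortex, the opposite direction to Ptgds. In hippocampus they were 472779 to 548167 in KO libraries and 435267 to 441052 in WT libraries, with 7 of the 14 markers called as higher and 1 as lower, the direction of the Ptgds fold change there. Library by library, the KO hippocampus sums were highest in library 1, where Ptgds was lowest. Their part in the Ptgds values was not tested.

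Igf2 (ENSMUSG00000048583, chromosome 7, 142650766 to 142666816, minus strand), an imprinted growth factor of the meninges and choroid plexus, had 3787, 2236 and 2922 normalized counts in KO cortex, against 3829.9, 3099.7 and 3529 in WT cortex. KO library 1 lay within the WT range and the other KO libraries below it (-0.25 ± 0.18, adjusted p = 0.506). KO hippocampus libraries had 5541, 7228 and 6292 normalized counts, against 14414, 4238 and 9328 in WT hippocampus. As with Slc13a4, WT libraries 1 and 3 were above every KO library and WT library 2 below every one (-0.39 ± 0.38, adjusted p = 0.485). The antisense gene Igf2os overlaps it with 0 to 30.7 normalized counts in cortex and 19.3 to 104 in hippocampus. The 1 transcription factor of the list, Foxc1 (ENSMUSG00000050295, chromosome 13, 31806633 to 31812476, plus strand), had 451, 377 and 422 normalized counts in KO cortex and 499, 448 and 486 in WT cortex, with a slight overlap (-0.20 ± 0.10, adjusted p = 0.362). In hippocampus it had 485, 842 and 678 in KO libraries and 756, 561 and 621 in WT libraries, with full overlap (0.02 ± 0.20, adjusted p = 0.941).

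Per kilobase of annotated exon, the mean level in KO cortex ran from 13442 normalized counts for Ptgds and 521 for Igf2 through Bgn (147), Slc13a4 (110.1), Slc6a13 (96.2), Slc22a6 (90.6), Ogn (77.7), Foxc1 (71.3) and Dcn (54.6) to Lum (35.1). In WT cortex Ptgds (24537) and Igf2 (609) also led, followed by Slc6a13 (226), Slc13a4 (188), Bgn (162), Slc22a6 (152), Ogn (133), Dcn (83.6), Foxc1 (81.7) and Lum (32.8). Slc6a13 stood at rank 5 in KO cortex and at rank 3 in WT cortex. In KO cortex 6 of 9 neighbours in that order, from Bgn down to Dcn, differed by less than the larger of their SDs over 3 libraries, and in WT cortex 2 of 9 did, Bgn with Slc22a6 and Dcn with Foxc1. In KO hippocampus Ptgds had 31041, Igf2 1110.2 and Bgn 306 normalized counts per kilobase, and Lum was last with 98.7. In WT hippocampus Ptgds had 23003, Igf2 1629.7 and Slc13a4 413, and Slc22a6 was last with 97.7, level with Lum and Foxc1 within their spread. There 7 of 9 neighbours in KO libraries and 5 of 9 in WT libraries were unresolved by the same measure.

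In cortex 9 of the 10 genes had a log2 fold change below 0, with a median of -0.76 against -0.01 over all genes tested. At an unadjusted p below 0.05 there were 6. The KO libraries were wholly below the WT libraries for 6 of 10 genes (Slc6a13, Slc22a6, Slc13a4, Dcn, Ogn and Ptgds), where 12.2% of all genes were, and wholly above them for 0 of 10, where 16.0% of all genes were. The 10 genes were chosen with earlier results of these data known, so these shares describe the list and are no test. In hippocampus 5 of 10 were below 0, the median was 0.00 against 0.02 over all genes, and 0 of 10 were called, with 1 (Dcn) at an unadjusted p below 0.05 and 0 called by edgeR's quasi-likelihood test on recovered reads. In bulk tissue fewer cells of a type and less RNA per cell cannot be told apart.

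**Figure D2:**
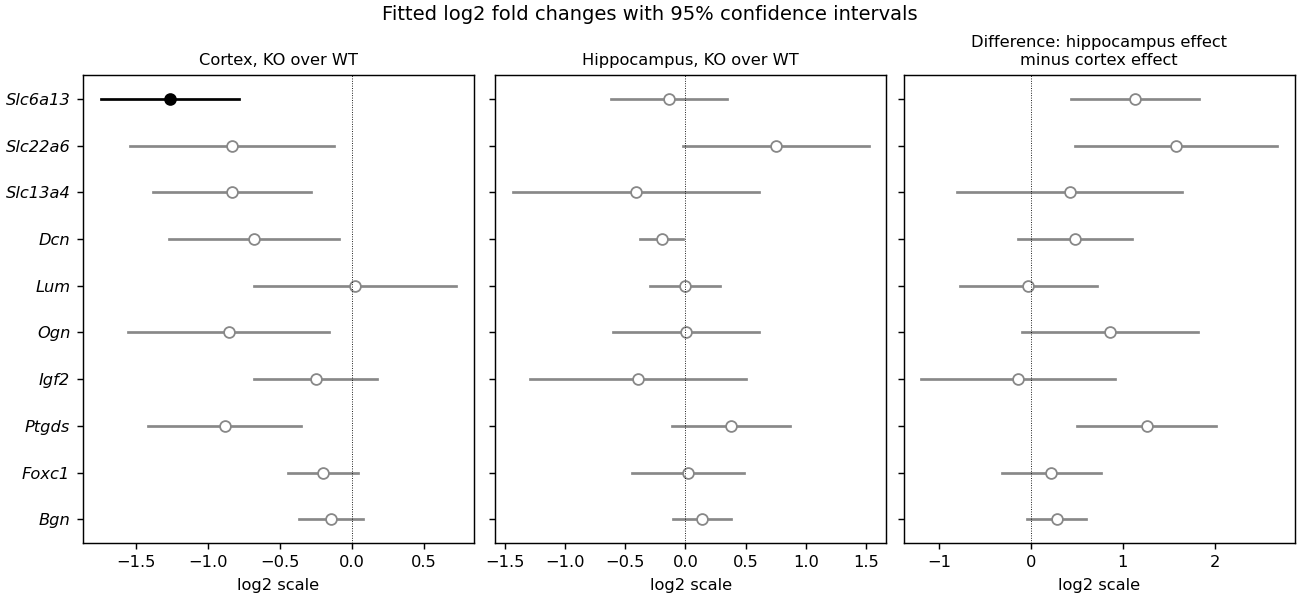
Log2 fold changes of the 10 genes with 95% confidence intervals, KO over WT in cortex (left) and hippocampus (middle), and the hippocampus effect minus the cortex effect (right), from limma with 3 libraries per group. The filled black point, Slc6a13 in cortex at -1.27, is the 1 value with an adjusted p below 0.05.

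Whether the KO effect differed between the tissues was tested with an interaction term over the 12 libraries, for which 3.02% of 21282 genes were called, 0.963% with a higher and 2.05% with a lower effect in hippocampus. None of the 10 genes was called, and 3 had an unadjusted p below 0.05. Those were Ptgds, with a hippocampus effect higher than the cortex effect by 1.26 ± 0.35 on the log2 scale (adjusted p = 0.0714), Slc6a13 with 1.13 ± 0.32 (0.0769) and Slc22a6 with 1.58 ± 0.50 (0.102). For the next largest, Ogn, the difference was 0.86 ± 0.44 (0.264). For Lum it was -0.03 with a 95% interval of -0.77 to 0.72, and the median over the 10 genes was 0.45. The fit treats cortex and hippocampus libraries as independent. Without KO hippocampus library 1 Slc22a6 (2.00) and Ptgds (1.51) were called, with adjusted p of 0.0430 and 0.0451.

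The genes moved together between libraries of 1 group. In KO cortex all 10 were lowest in library 2, middle in library 3 and highest in library 1, an order that 19.5% of all genes had, and the highest KO library was at least 1.5 times the lowest for 8 of 10, against 19.5% of all genes. The ratio was 2.47 for Slc22a6 and 2.46 for Ogn, and 1.20 for Foxc1. Ttr, a choroid plexus transcript, had 1928, 10183 and 6024 normalized counts in the same KO libraries, and the striatal marker sums given above were likewise lowest in library 1 and highest in library 2, the reverse of the order of the 10 genes. Their part in the cortex values was not tested.

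In KO hippocampus 8 of 10 genes were lowest in library 1 and highest in library 2, as 17.3% of all genes were, the exceptions being Dcn and Lum. In WT hippocampus 7 of 10 were lowest in library 2 and highest in library 1, as 21.5% of all genes were. The choroid plexus marker sums in hippocampus were 43088, 27886 and 34497 normalized counts in KO libraries and 514762, 31050 and 273676 in WT libraries. Igf2 and Slc13a4 followed that WT order most widely, at 3.40 and 3.60 times from lowest to highest, and the sums of 12 mural markers (24425, 28129 and 26098 in KO libraries; 39971, 21435 and 30784 in WT libraries) and of 14 endothelial markers (29905 to 30122 in KO libraries; 55582, 23951 and 39444 in WT libraries) had the same WT order. A comparison with WT libraries 1 and 3 left out was added after the data were seen. In it Igf2 was 0.58 and Slc13a4 0.56 higher in KO hippocampus on the log2 scale. Only WT library 2 remained, which was below every KO library for both genes, so that sign was fixed by the choice of libraries. Without WT library 1 alone, Igf2 was at 0.0065 and Slc13a4 at 0.030. The comparison with 1 WT library assumes that this library varies as the KO libraries do.

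**Figure D3:**
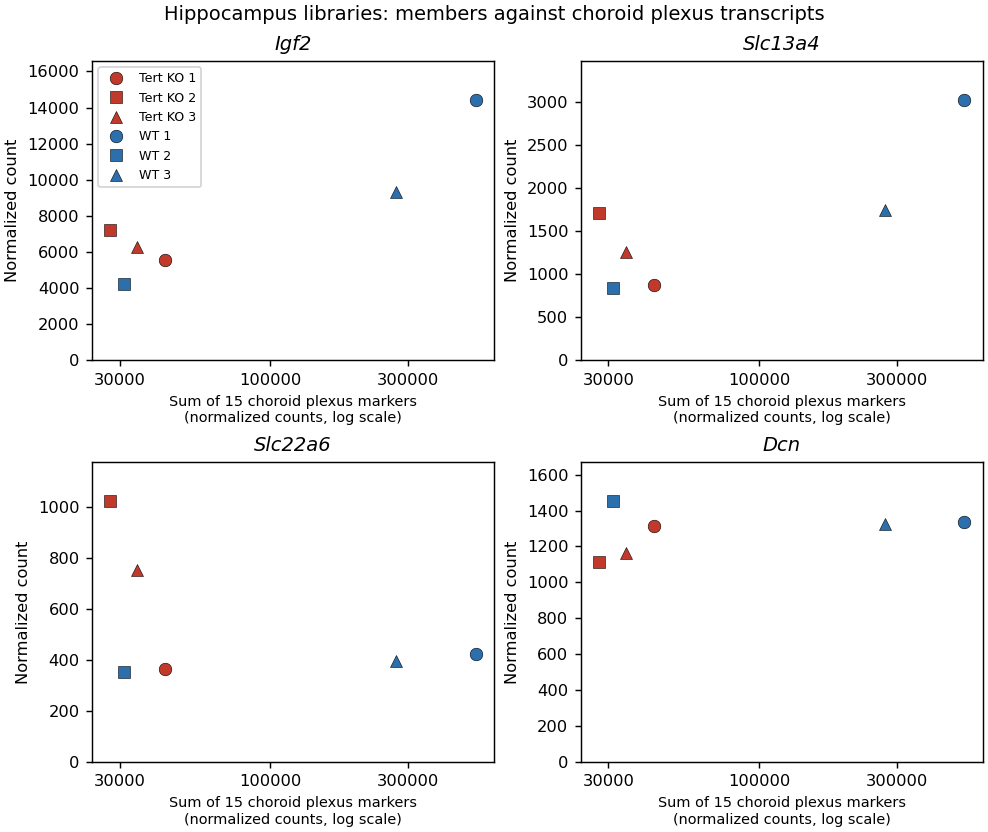
Normalized counts of Igf2, Slc13a4, Slc22a6 and Dcn in each hippocampus library against the sum of 15 choroid plexus markers in that library (log scale), KO in red and WT in blue, 1 marker shape per library number. WT libraries 1 and 3 lie at 514762 and 273676 on the horizontal axis and are the highest for Igf2 and Slc13a4, while Slc22a6 is highest in KO libraries 2 and 3.

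**Figure D4:**
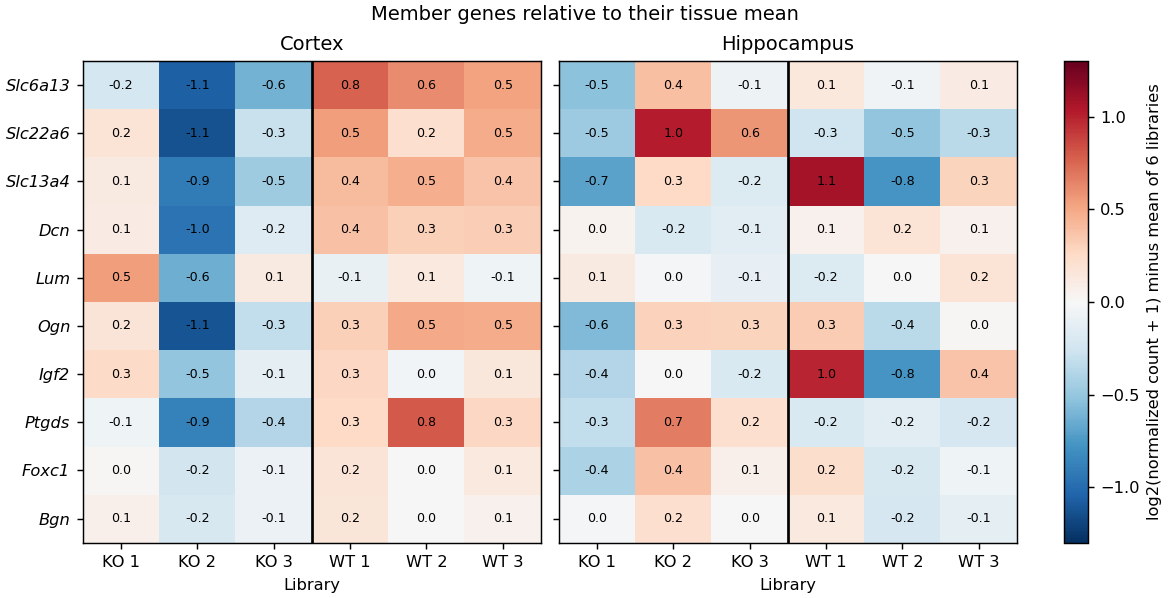
Log2(normalized count + 1) of each gene in each library minus the gene's mean over the 6 libraries of the tissue, KO libraries left of the black line and WT libraries right of it. The column of KO cortex library 2 is the lowest for each of the 10 genes. In hippocampus KO library 1 is the lowest of the KO libraries for 8 of 10 genes, and WT library 2 the lowest of the WT libraries for 7 of 10.

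Deviations from the group means over the 12 libraries, which the difference between genotypes does not enter, gave a Pearson r between pairs of the 10 genes of 0.04 (Foxc1 and Lum) to 0.96 (Slc22a6 and Slc6a13). The next closest pairs were Igf2 and Slc13a4, at 0.95, and the neighbours Lum and Dcn, at 0.91. Against the mean of the other 9 genes, Ogn had the highest r, 0.95, and Dcn and Lum the lowest, 0.47 and 0.49. Among 16801 genes averaging 50 or more normalized counts in each tissue, those most like the mean of the 10 were Col1a2 (r = 0.97) and Col3a1 (0.94), fibrillar collagens, Ptgfr (0.96), the prostaglandin F receptor, Colec12 (0.96), a scavenger receptor, and Fmod (0.95), a small proteoglycan. Most like Slc6a13 alone were Fmod (0.98), Slc22a6 (0.96), Ptgfr (0.95), Colec12 (0.94) and Prg4 (0.94), the lubricant proteoglycan 4. These values describe 12 libraries that share groups, scaling and dissection, and carry no test.

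Beyond the 10 genes, 24 other meningeal and perivascular fibroblast genes were all detected. They too were chosen with earlier results of these data known. In cortex 19 of the 24 were below 0, with a median of -0.40, 10 had KO libraries wholly below WT libraries (12.2% of all genes did), 1 rose and 0 fell (1.28% and 0.661% of all genes). Over the alternatives 0 to 8 of the 24 were called as lower. The one that rose was Col6a1, a chain of collagen VI, with 6411 ± 105 normalized counts in KO cortex and 5177 ± 157 in WT cortex (SD, n = 3 each; 0.31 ± 0.05, limma adjusted p = 0.0446). Col1a1, a chain of collagen I, had 618, 447 and 545 normalized counts in KO cortex, against 765, 1192 and 994 in WT cortex (-0.86 ± 0.18, adjusted p = 0.0700). Islr, a leucine-rich repeat protein, had 763, 555 and 618 in KO cortex, against 959, 1075 and 947 in WT cortex (-0.63 ± 0.13, adjusted p = 0.0616). Both were called as lower without WT cortex library 2, with adjusted p of 0.0117 each, in a fit that called 2273 of 21927 genes as lower. In hippocampus 14 of the 24 were below 0, with a median of -0.17, 2 had KO libraries wholly below and 2 wholly above WT libraries, and 1 rose and 1 fell, fewer than the 14.1% and 15.1% of all genes that were called as higher and as lower there. Apod, a lipocalin, rose (15310 ± 598 in KO and 13080 ± 17.3 in WT, 0.23 ± 0.04, adjusted p = 0.00552) and Cemip, which breaks down hyaluronan, fell (2416 ± 81.5 in KO and 3519 ± 205 in WT, -0.54 ± 0.05, adjusted p = 0.000399).

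The small leucine-rich proteoglycan list, which holds Dcn, Lum, Ogn and Bgn, had 1 fall and 0 rises among 14 genes tested in cortex. Over all genes 0.661% fell and 1.28% rose there. Prelp, a collagen-binding member, had 1506, 1385 and 1322 normalized counts in KO cortex, against 2141, 1938 and 2217 in WT cortex, and fell by 0.58 ± 0.08 (limma adjusted p = 0.0276). In hippocampus 3 of 15 fell and 0 rose, the falls near the 15.1% of all genes called as lower, and over the alternatives 0 to 5 fell. Prelp had 3708, 3547 and 3498 normalized counts in KO hippocampus, against 4961, 3900.1 and 4282 in WT hippocampus (-0.28 ± 0.08, adjusted p = 0.0381), and Ecm2 had 459, 398 and 415, against 774, 525.5 and 563 (-0.53 ± 0.15, adjusted p = 0.0305). Podnl1 was near the detection limit, with 0, 1.80 and 7.74 in KO hippocampus and 19.3, 9.63 and 27.5 in WT hippocampus (adjusted p = 0.0460), and was called in 5 of 11 alternatives; the call was lost without KO library 1 or KO library 2, without the filter on low values, after quantile normalization, with a constant prior variance and by edgeR. Fmod, closest to Slc6a13 in its library order, had 1179, 411 and 747 normalized counts in KO cortex, against 1416, 1185 and 1230.4 in WT cortex (-0.84 ± 0.34, adjusted p = 0.249). In hippocampus Prelp was called in 6 and Ecm2 in 7 of 14 alternatives; both calls were lost without WT library 3 and without any 1 of the KO libraries, and with WT libraries 1 and 3 both left out Prelp was at -0.12 and Ecm2 at -0.31.

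Of the insulin-like growth factor pathway, Igf2 included, 0 of 17 genes were called in cortex, where 1.94% of all genes were, with 2 at an unadjusted p below 0.05. In hippocampus 3 of 18 fell and 3 rose, shares near the 15.1% and 14.1% of all genes that did. The 3 that fell are receptors. Igf1r, the signalling receptor, had 5895, 5759 and 5749 normalized counts in KO hippocampus, against 10899, 10299 and 10913 in WT hippocampus (-0.88 ± 0.04, limma adjusted p = 2.03e-05). Igf2r, which clears Igf2 from the cell surface, had 2539, 2691 and 2471, against 4212, 4420.2 and 4300.04 (-0.75 ± 0.05, adjusted p = 5.28e-05). Insr, the insulin receptor, had 3334, 3605 and 3463, against 5635, 5421 and 5635 (-0.68 ± 0.04, adjusted p = 5.97e-05). None of these groups overlapped, and the calls held in all 14 alternatives, with Igf1r at -0.41 and Insr at -0.31 where a trend along exonic length was removed. The 3 that rose, named after their values were seen, were Igfbp4 (0.38), Igfbpl1 (0.56) and Htra1 (0.47), the last a protease. Igfbp4 and Htra1 were called in all 14 alternatives and Igfbpl1 in 5, its call being lost without any 1 library other than KO library 2.

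Of the prostaglandin genes, Ptgds included, 0 of 12 were called in cortex, where 1.94% of all genes were, with 3 at an unadjusted p below 0.05. In hippocampus 5 of 12 rose and 0 fell, where 14.1% of all genes were called as higher and 15.1% as lower, and over the alternatives 1 to 6 rose. Ptges2, a prostaglandin E synthase, had 2140.1, 2051 and 2093 normalized counts in KO hippocampus, against 1685, 1784 and 1777 in WT hippocampus (0.26 ± 0.05, limma adjusted p = 0.00545). Akr1b3 (0.23 ± 0.04, adjusted p = 0.00720) and Ptges3 (0.15 ± 0.04, adjusted p = 0.0324) rose as well, by small steps; Ptges3 was called in 7 of 14 alternatives, and the call was lost without WT library 2, WT library 3, KO library 2 or KO library 3. Ptgdr, the prostaglandin D receptor, had 34.8, 19.7 and 14.98 normalized counts in KO cortex, against 62.4, 49.1 and 93.8 in WT cortex, apart but not called (-1.56 ± 0.38, adjusted p = 0.0985). Among 14 transporter genes of the brain borders, which include the 3 of the list and further GABA and anion carriers, 1 rose (Abcc4, an exporter of organic anions and prostaglandins; 0.46 ± 0.08, adjusted p = 0.0460) and 1 fell (Slc6a13) in cortex. Over all genes 1.28% rose and 0.661% fell in cortex. Slc6a11, a glial GABA carrier, rose in hippocampus, by 0.35 (limma adjusted p = 0.000746), where Slc6a13 was not called.

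Over all genes, 1.28% were called as higher in cortex and 15.1% as lower in hippocampus. Of 15 transcription factors of the meninges, Foxc1 included, 1 rose in cortex and 1 fell in hippocampus, both times Foxp1, which neurons also express. It had 10538, 11818 and 11439 normalized counts in KO cortex, against 8262, 8758 and 8426 in WT cortex (0.41 ± 0.06, limma adjusted p = 0.0360). In hippocampus it had 5671, 5450.5 and 5844, against 6339, 6868 and 6292 (-0.20 ± 0.05, adjusted p = 0.0195), a sign that turned to 0.18 (adjusted p = 0.0159) where a trend along exonic length was removed. That hippocampus call was also lost without KO library 1 or KO library 2. Zic1, a zinc finger factor of the meninges, had 793, 523 and 695 normalized counts in KO cortex, against 1233, 886 and 1151 in WT cortex, apart but not called (-0.71 ± 0.18, adjusted p = 0.109). Of border macrophage genes, 0 of 10 were called in cortex, where 1.94% of all genes were, and 0 had an unadjusted p below 0.05. In hippocampus 1 of 11 rose, where 14.1% of all genes did. That gene was Mrc1, the mannose receptor, with 246, 294 and 307 normalized counts in KO libraries and 221, 203 and 203 in WT libraries (0.43 ± 0.12, adjusted p = 0.0291), a call lost without WT library 3, KO library 2 or KO library 3. In cortex the calls of Col6a1, Prelp, Abcc4 and Foxp1 were each lost on leaving out any 1 library other than WT library 2.

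**Figure D5:**
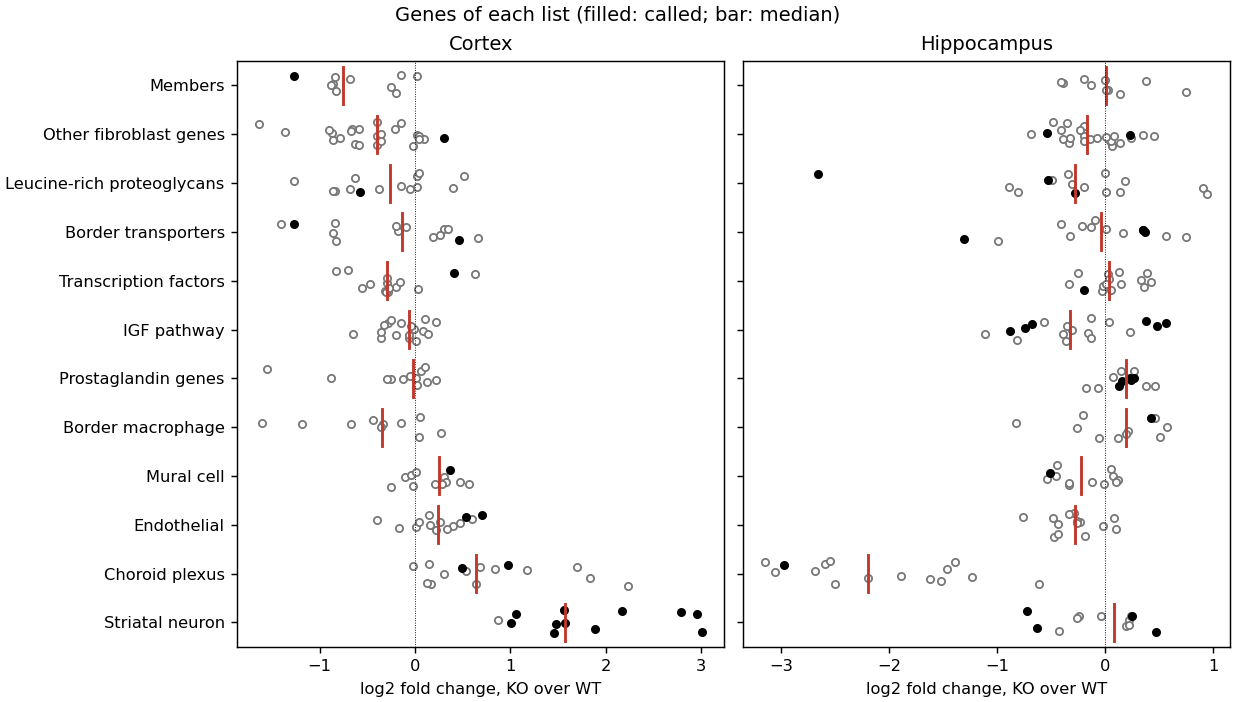
Log2 fold changes (KO over WT) of the genes of each list in cortex (left) and hippocampus (right), 1 point per gene, filled where called, with a bar at the median of the list. The 10 genes have a median of -0.76 and the 24 other fibroblast genes of -0.40 in cortex; in hippocampus the 10 genes have a median of 0.00.

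Markers of other cell types were counted in the same way in cortex, where 1.28% of all genes were called as higher and 0.661% as lower. Of 12 mural genes 1 rose and 0 fell (summed level 19263 to 21151 normalized counts in KO cortex and 15586 to 17796 in WT cortex), and of 14 endothelial genes 2 rose and 0 fell (26744 to 29288 in KO and 22343 to 23553 in WT). Of 15 choroid plexus genes 2 rose and 0 fell (23413 to 35871 in KO and 18046 to 18183 in WT). Of 5 blood genes 0 were called, with 0 at an unadjusted p below 0.05 (11892 to 14918 in KO and 10855 to 21948 in WT). Of 10 ependymal genes 0 were called and 9 were below 0 (2399 to 2717 in KO and 2682 to 3055 in WT). Of 12 striatal neuron genes 11 rose. In hippocampus, where 14.1% of all genes were called as higher and 15.1% as lower, 0 mural genes rose and 1 fell. There 0 endothelial genes were called (2 at an unadjusted p below 0.05), and 0 blood genes were called or had an unadjusted p below 0.05. Of ependymal genes 0 rose and 2 fell, and of striatal genes 2 rose and 2 fell. Of 15 choroid plexus genes 0 rose and 1 fell. All 15 were below 0 there, with a median of -2.20, and 10 had an unadjusted p below 0.05. These hippocampus counts changed with the libraries and settings used. Over the alternatives 0 to 11 endothelial genes rose and 0 to 11 fell. For mural genes 0 to 3 rose and 0 to 7 fell, and for choroid plexus genes 0 to 1 and 0 to 15. For ependymal genes 0 rose and 1 to 7 fell. The alternatives include the comparison with WT libraries 1 and 3 both left out. No marker of these lists was at 0 in every library of either tissue. The part of any of these in the values of the 10 genes was not tested.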

How the data were processed

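RNA-seq of cortex and hippocampus gave 1 table per tissue with 6 libraries each. The deposited values are a signal, gene read counts divided per library by the authors, which the tables call normalized counts; per the submitters' processing notes the tools were STAR, HTSeq and DESeq2 and the build GRCm38, and the sources used here give no settings or strand. All values were whole multiples (within 0.001) of 1 step per library, taken as 1 read for depth. Whether the step is 1 read could not be checked for WT cortex libraries 1 and 2. Columns of other samples numbered 0. Of 55487 gene identifiers 55227 matched the GENCODE annotation of GRCm38 and 260 did not. Genotypes were compared within each tissue, and the effects between tissues by an interaction term, with limma 3.58.1 in R 4.3.3 (prior variance following expression, pseudocount 1, genes with a mean of at least 10 in each tissue fitted, Benjamini-Hochberg over all genes); edgeR 4.0.16 was run on recovered reads of hippocampus, where 100% of values came out whole, and called 6682 genes. The fits were tested on simulated data. The members and lists were chosen with earlier results of these data known. Named genes are the 10 members, Tert, the 3 genes with the smallest p in each pathway list and tissue, and the 5 most like the members by Pearson r of deviations from group means; others are said to be so. Lists of other cell types (mural, endothelial, choroid plexus, blood, ependymal, striatal, cortical and hippocampal neuron, oligodendrocyte) are given as counts and sums, with Ttr. In oligodendrocyte lists of 14 genes, 1 rose and 0 fell in cortex and 7 rose and 1 fell in hippocampus; in cortical neuron lists of 10, 1 rose and 1 fell, and 2 rose and 0 fell; in hippocampal neuron lists of 10, 0 rose and 2 fell, and 2 rose and 2 fell. The main fits did not pair libraries by replicate number. Whether the numbers pair a cortex with a hippocampus is not known. Replicates of a group differed by more than sampling noise.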

Additional observations from a re-analysis of the deposited data

Results flagged for a closer look

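For 3 genes named from the wider lists the difference between the tissues in the KO effect passed the test (limma interaction). Foxp1 was 0.41 higher in KO than in WT cortex and 0.20 lower on the log2 scale (-0.20) in KO than in WT hippocampus, a difference of -0.61 ± 0.08 (adjusted p = 0.00453), with groups that did not overlap in either tissue; with a trend along exonic length removed the difference was -0.26 (adjusted p = 0.317). Igf2r had a log2 fold change of -0.06 in cortex, with overlapping groups, and of -0.75 in hippocampus, a difference of -0.68 ± 0.17 (adjusted p = 0.0499), called in 6 of 19 alternatives and otherwise above the threshold, up to an adjusted p of 0.206. Igfbp4, named after its values were seen, had a log2 fold change of -0.14 in cortex, where all KO libraries were below all WT libraries without a call, and of 0.38 in hippocampus, where they were above, a difference of 0.53 ± 0.09 (adjusted p = 0.0162). It was called in 15 of 19 alternatives, the losses being without KO cortex library 3 (0.0550), WT hippocampus library 3 (0.0531) or KO hippocampus library 2 (0.0510) and with WT hippocampus libraries 1 and 3 both left out (0.139). The difference was called for 3.02% of all genes tested, and for 0 of the 10 fibroblast genes.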

How the results depend on the processing

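In cortex 1 of the 10 genes was called, and 0 without the filter on low values, with a constant prior variance or with a replicate block. Leaving out single libraries gave 0 to 3 called genes of the 10 in cortex, 0 to 3 in hippocampus and 0 to 2 for the difference between tissues. Without WT hippocampus library 2, Igf2 was called as lower (-0.88, adjusted p = 0.00788). Over all genes, the 426 calls in cortex became 233 without the filter, 86 with a constant prior variance, 1285 with the exonic length trend removed and 45 with the replicate block. Leaving out single libraries gave 15 (without KO library 3) to 4693 (without WT library 2) calls in cortex, 3656 to 7833 in hippocampus (6513 in the fit of all libraries) and 171 to 1965 for the difference between tissues (642). That 642 became 370 without the filter, 1083 after quantile normalization, 253 with a constant prior variance, 1032 with the length trend removed and 216 with the replicate block. With WT hippocampus libraries 1 and 3 both left out, chosen after seeing the data, 1 of the 10 was called in hippocampus, 3705 genes were called there and 59 for the difference; Slc13a4 (0.56), Lum (0.0020) and Igf2 (0.58) changed sign in hippocampus, and so did Igf2 (0.83) for the difference. Lum also changed sign after quantile normalization, to 0.13 in hippocampus and 0.0040 for the difference, and Ogn (-0.047) and Foxp1 (0.18) did in hippocampus with the length trend removed. Leaving out single libraries turned the sign of Lum in cortex (-0.25 to 0.34), of Slc6a13 (-0.36 to 0.10), Slc13a4 (-0.89 to 0.030), Lum (-0.091 to 0.088), Ogn (-0.17 to 0.29), Igf2 (-0.88 to 0.0065) and Foxc1 (-0.16 to 0.24) in hippocampus, and of Slc13a4 (-0.059 to 0.86), Lum (-0.35 to 0.24) and Igf2 (-0.62 to 0.26) for the difference. The cause of these changes was not tested. Of the other alternatives for single genes of the 10, 404 kept direction and side of the threshold. Libraries were also correlated by their log2 deviations from the group means, over genes averaging 50 or more, not by their expression levels. On that measure same-numbered KO and WT libraries had r of -0.09, -0.01 and -0.18 in cortex and -0.05, 0.14 and -0.06 in hippocampus. Differently numbered ones had -0.09 to 0.18 and -0.16 to 0.20. Same-numbered cortex and hippocampus libraries had r of -0.20, -0.11 and -0.18 in KO and 0.03, -0.01 and 0.17 in WT. Differently numbered ones had 0.02 to 0.15 in KO and -0.12 to 0.06 in WT. These values do not settle whether a cortex and a hippocampus with the same number came from the same mouse. edgeR was not run for cortex or for the difference. For 37 of 40 gene and group pairs of the 10 genes the SD between the 3 libraries was above the counting error of the shallowest value; the exceptions were Slc13a4, Dcn and Lum in WT cortex.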
